A study of Mus musculus with 2 samples.

Results

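Among the hepatic cells of a γδ T cell sort, 93 cells carried transcripts of the myeloid lineage. They were chosen by their UMI sum of 4 genes: the kept cells of the liver library with at least 10 unique molecular identifiers (UMIs, each counted as 1 captured transcript) of Lyz2, C1qa, C1qb and C1qc together. The 93 cells were 1.15% of the 8075 kept hepatic cells (exact binomial 95% interval 0.931% to 1.41%). Kept cells had 800 to 4000 detected genes and at most 6% mitochondrial UMIs. The study compared γδ T cells sorted from the liver with γδ T cells sorted from the thymus of untreated wild-type C57BL/6J mice at 8 weeks of age, with 1 library per tissue. Both tissues were stained for CD3e and the γδ T cell receptor, and the thymus alone was first depleted with beads against CD4 and CD8. Each library held cells of several mice, and how the mice were divided is not stated. A library stands for 1 sample, so no test was possible, and all intervals below cover counting error only.

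Macrophages and monocytes are phagocytes that share genes for lysozyme, cathepsins, Fc receptors and the receptor for colony-stimulating factor 1. Kupffer cells are the macrophages resident in liver sinusoids, where they clear particles and old red cells from the blood, and they carry Clec4f, Vsig4 and Cd5l. Monocytes circulate as a classical form with high Ly6C and CCR2 and as a patrolling form with low Ly6C, which lines the vessel wall. Dendritic cells present antigen on MHC class II, and neutrophils store antimicrobial proteins in granules.

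The liver library held 25040963 UMIs over 8658 barcodes, and 95% binomial, Poisson and ratio intervals were taken from such counts. The members had a median of 3222 UMIs per cell (1692 to 16574) and 1226 detected genes, against 2740 UMIs and 1130.5 genes in the 7982 other kept hepatic cells. A level in CPM is a gene's UMI count, summed over the cells of a group, per 1000000 UMIs of that group. The members and the other cells were separated on 4 genes, so every difference between them is a description, and the values of these 4 genes are no finding.

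The rule genes encode lysozyme M (Lyz2), an enzyme that cuts bacterial cell walls, and the 3 chains of C1q (C1qa, C1qb, C1qc), the recognition part of the classical complement pathway. The summed UMIs of the 4 genes were 0 in 7388 of the kept hepatic cells and 1 in 562 cells. Between 3 and 9 UMIs were seen in 16 cells, 2 of them with 3 or 4 UMIs and 14 with 5 to 9. The thinnest range thus lay under the limit of 10, which did not fall into a gap. The 14 cells just outside, with 5 to 9 UMIs, had a median of 3.5 UMIs of the monocyte panel described below, and 2 of them reached 3 UMIs of the Kupffer panel. The 11 cells just inside, with 10 to 14 UMIs, had a median of 3 monocyte panel UMIs, and 2 of them likewise reached 3 Kupffer panel UMIs. Cells on both sides of the limit thus had similar panel values. Lyz2 was found in 92 members, with a median of 32 and at most 347 UMIs per cell, and in 4.75% of the other cells. Of the marker genes given for these cells, Apoe was found in 89 members, Csf1r in 65, Cd74 in 63, C1qa in 24 and Clec4f in 10. Lyz1, the neighbouring paralog of Lyz2, had 10 UMIs in the members, and how reads that match both genes were counted is not stated.

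C1qa, C1qc and C1qb lie side by side on chromosome 4 (GRCm38, 136895916 to 136898844, 136889801 to 136892936 and 136880126 to 136886200), and Lyz2 lies on chromosome 10 (117277541 to 117282272). The sequences before their starts are shown because the C1q genes were found together in the same members while Lyz2 was not tied to them. They are the 250 bases before the RefSeq start (GRCm38.p6), written 5′ to 3′ on the gene's strand, and capitals mark GAGGAA or its reverse complement TTCCTC, a core that the myeloid factor PU.1 can bind. For C1qc the start in the sequence table lies 22 bases inside the gene span given above. No entry was at hand for C1qa.
C1qb, chr4:136886201-136886450, minus strand: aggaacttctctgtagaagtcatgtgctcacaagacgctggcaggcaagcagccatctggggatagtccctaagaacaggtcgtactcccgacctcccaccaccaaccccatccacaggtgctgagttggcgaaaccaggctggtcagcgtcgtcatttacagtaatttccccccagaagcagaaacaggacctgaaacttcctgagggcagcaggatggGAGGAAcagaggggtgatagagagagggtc
C1qc, chr4:136892915-136893164, minus strand: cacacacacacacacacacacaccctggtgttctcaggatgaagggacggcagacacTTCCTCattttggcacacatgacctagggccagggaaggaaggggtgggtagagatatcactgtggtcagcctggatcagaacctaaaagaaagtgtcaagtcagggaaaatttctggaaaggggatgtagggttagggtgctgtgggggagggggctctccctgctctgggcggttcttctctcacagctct
Lyz2, chr10:117282273-117282522, minus strand: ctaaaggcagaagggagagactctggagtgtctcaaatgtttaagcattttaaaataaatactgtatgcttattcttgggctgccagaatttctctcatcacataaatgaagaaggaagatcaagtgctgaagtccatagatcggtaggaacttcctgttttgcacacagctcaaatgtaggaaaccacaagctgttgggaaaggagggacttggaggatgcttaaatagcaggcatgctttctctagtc
Clec4f, chr6:83656117-83656366, minus strand: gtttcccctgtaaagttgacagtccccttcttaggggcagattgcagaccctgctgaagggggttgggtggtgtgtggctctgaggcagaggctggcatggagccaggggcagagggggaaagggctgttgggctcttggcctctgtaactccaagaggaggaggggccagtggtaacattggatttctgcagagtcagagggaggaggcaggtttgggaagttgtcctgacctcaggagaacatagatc
C1qb and C1qc each held 1 match, 30 and 193 bases before the start, and these letters were not in the windows of Lyz2 and Clec4f. Treml4, a monocyte gene described below, held 2 matches, 178 and 87 bases before its start. Of the 3 CD3 chain genes 2 held a match. Of all 27025 genes in the table, 25.9% held a match in a window of this length, so a match is a description of the letters and not a site.

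The 93 cells fell apart by C1q. In 63 members no C1q UMI was found and in 5 members 1 UMI, no member had 2 to 4, and 25 members had 5 to 158. All 3 chains were found together, with C1qa in 24, C1qb in 25 and C1qc in 24 of these 25 cells. The Kupffer panel (10 genes) divided the 25 further, since 11 of them had at least 3 panel UMIs. The members are therefore described as 11 cells with Kupffer transcripts, 14 C1q cells with at least 5 C1q UMIs and fewer than 3 Kupffer panel UMIs, and 68 low-C1q cells with at most 1 C1q UMI. The limit of 5 C1q UMIs was chosen after the values were seen, so the C1q level of these groups is no finding. The median depth was 3167 UMIs in the cells with Kupffer transcripts, 4997.5 in the C1q cells and 2758 in the low-C1q cells.

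**Figure D1:**
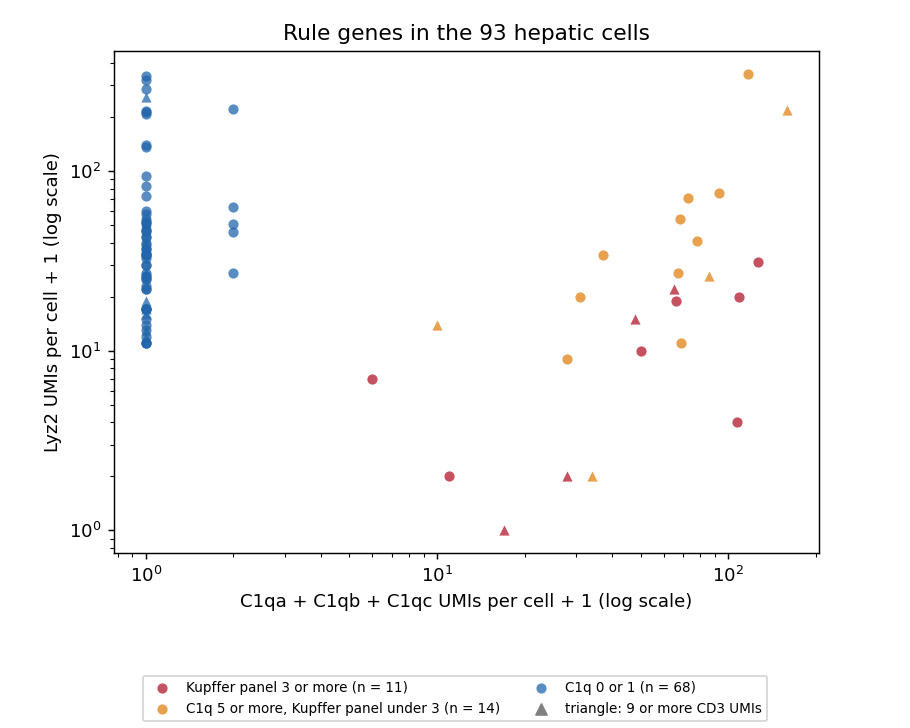
UMIs of Lyz2 (y axis) against summed UMIs of C1qa, C1qb and C1qc (x axis), each plus 1 on a log scale, in each of the 93 members, coloured by group. Triangles are cells with at least 9 CD3 chain UMIs. The 68 low-C1q cells stand at 0 or 1 C1q UMI with 10 to 336 Lyz2 UMIs, apart from the 25 cells with 5 to 158 C1q UMIs.

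Kupffer transcripts were found in 11 members, 11.8% (6.06% to 20.2%), against 3 of the other kept cells (0.0376%). After every cell had been thinned at random to 1500 UMIs the shares were 11.8% and 0.0376%. Of the 10 panel genes 7 had at least 20 UMIs over all kept hepatic cells, and all 7 were at least 4-fold higher in the members. Over all genes, 683 of 11026 with at least 20 UMIs were at least 4-fold higher, 6.19%, and the contrast is the one that chose the members, so nothing is read from the counts of list genes. The panel sum in the 11 cells was 110, 75, 62, 42, 42, 28, 25, 15, 14, 9 and 6 UMIs, and the next members had at most 2. No member had 3 to 5 panel UMIs, so the limit of 3 separated the same cells as a limit of 5.

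Clec4f, a lectin receptor of Kupffer cells that binds galactose-type sugars, had 28, 15, 11, 12, 12, 22, 6, 7, 8, 0 and 3 UMIs in these 11 cells in the same order. Its level was 3143 CPM (2614 to 3748), and no UMI was found in the other members. Vsig4, the complement receptor that binds C3b-coated particles, reached 1394 CPM (1050.3 to 1815) and was found in 10 of the 11. Cd5l, a secreted scavenger-type protein made by tissue macrophages, reached 3397 CPM (2846 to 4023) in 9 of the 11 and had 1 UMI elsewhere among the members. These 3 genes made up most of the panel UMIs. Fcna (ficolin A, a lectin that starts complement) was at 1039 CPM (746 to 1409.9) in 7 cells, Folr2 (a folate receptor of resident macrophages) at 963 CPM (682 to 1322) in 8, and Marco (a scavenger receptor for bacteria) at 329.5 CPM (176 to 564) in 4. Timd4, a receptor for phosphatidylserine on dying cells, had 5 UMIs in 4 members, and Spic, a transcription factor of macrophages that recycle iron, had 16 UMIs in 6 members. The cell with 9 panel UMIs owed all of them to Spic and had no UMI of Clec4f, Vsig4 or Cd5l. That cell also held 35 UMIs of Hmox1, which breaks down heme, and 11 of Slc40a1, the iron exporter ferroportin.

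Some genes outside the panel also had a higher level in these 11 cells than in the other members. Ccl24, a chemokine for eosinophils, had 21 UMIs in 9 of the 11 and none in the other members. Apoc1, an apolipoprotein, was at 2281 CPM (1835 to 2804) there against 148 CPM (78.8 to 253) in the C1q cells and 15.8 CPM (4.30 to 40.4) in the low-C1q cells. Cfp (properdin, which stabilises the alternative complement convertase) was at 1090 CPM (789 to 1468), against 34.1 CPM (7.04 to 99.8) in the C1q cells and 82.8 CPM (51.3 to 127) in the low-C1q cells. Slc40a1 was at 862 CPM (597 to 1204), against 91.0 CPM (39.3 to 179) in the C1q cells, all from 1 cell, and no UMI in the low-C1q cells. Clec1b, a lectin-like receptor, was at 456 CPM (270.4 to 721), with 1 UMI in the other members. Among genes outside every list, the highest ratio of the 11 cells over the other members was that of Wfdc17, a small secreted protein, at 8.76-fold (7.32 to 10.5) with 249 UMIs in 10 of the 11. Creg1 followed at 5.77-fold and Cd81 at 5.04-fold. Txk, at 4.68-fold, had 20 UMIs in 5 of the 11 cells, 10 of them in 1 cell. Hspb1, at 3.87-fold, had its 21 UMIs in 1 cell. Of the 11 cells 4 had at least 9 CD3 UMIs. With genes at 0 set to 3 UMIs, the lowest ratio was that of Alox5ap, needed for leukotriene synthesis, with 1 UMI in the 11 cells and 239 in the other members (0.0362, 0.000913 to 0.204). Syngr2, Plaur, Mdh2 and Bcl2a1d also had 1 UMI in the 11 cells, at ratios of 0.0892 to 0.107. Ccr2, Ly6c2, Ace, Chil3, Fabp4, Hp and Cx3cr1, genes of monocytes, had no UMI in the 39450 UMIs of the 11 cells, where 3 UMIs would have been 76.1 CPM. Other monocyte genes were found there: Gngt2 had 27 UMIs in 9 of the 11 cells, Plac8 18 UMIs in 5, Ear2 7 UMIs in 3, Ms4a6c 7 in 5, Ifitm6 and Adgre4 3 UMIs each, Treml4 and Cd300e 2 each and Eno3 1. The monocyte panel described below reached 3 UMIs in 3 of the 11. A minimum of 500 detected genes in place of 800 raised the members to 112 and those with Kupffer transcripts to 20, so the filter on genes removed 9 such cells.

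**Figure D2:**
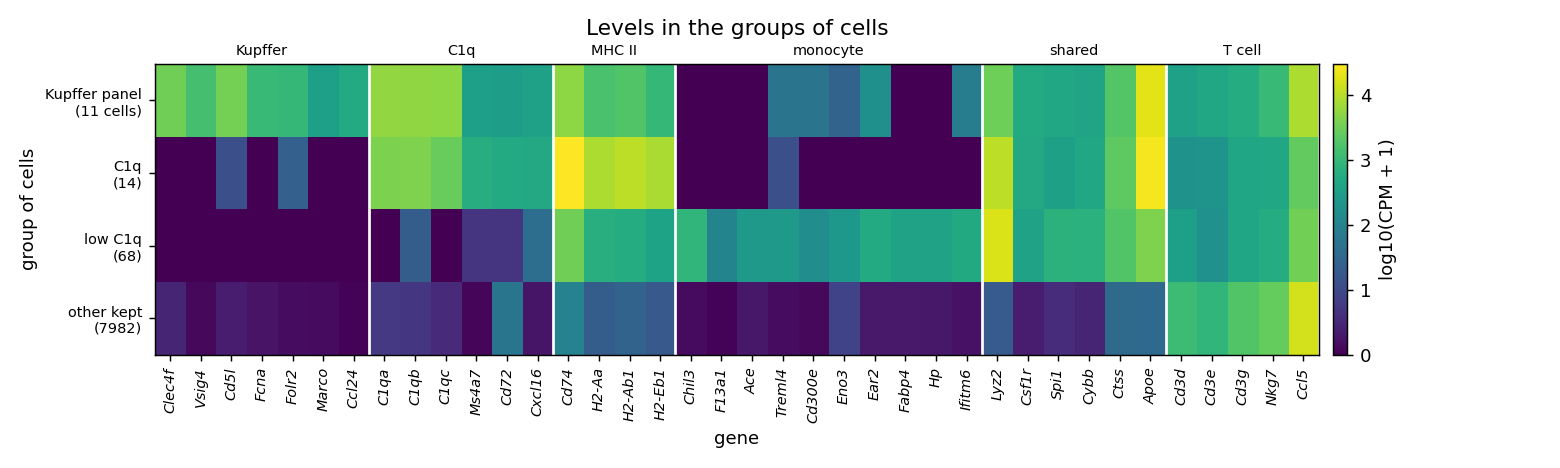
Level of each gene as log10(CPM + 1), from dark (0) to yellow (highest), in the 3 groups of members and in the 7982 other kept hepatic cells. Clec4f, Vsig4 and Cd5l are bright in the cells with Kupffer transcripts, Cd74 and the H2 genes in the C1q cells, and Ace, Treml4 and Cd300e in the low-C1q cells.

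The 14 C1q cells without Kupffer transcripts held most of the MHC class II transcripts. The 12 listed genes of this pathway summed to 1206, 686, 581, 489, 484, 407, 353, 257, 230, 201, 147, 35, 27 and 20 UMIs per cell, with a level of 58299 CPM (56713 to 59917), against 10139 CPM (9170 to 11183) in the cells with Kupffer transcripts and 5165 CPM (4889 to 5453) in the low-C1q cells. The per-cell values overlapped, since the cells with Kupffer transcripts ranged from 0 to 209 UMIs and the low-C1q cells from 0 to 577. The 209 UMIs were in the cell whose panel UMIs were all Spic. The next highest of the 11 cells with Kupffer transcripts had 74. The C1q cells with 1206, 686 and 581 class II UMIs were deep, at 16574, 8695 and 10788 UMIs in all. They also had 14, 9 and 16 CD3 UMIs, and the cell with 686 had 9 C1q UMIs and 1 Apoe UMI. The C1q cells with 489, 484, 407 and 353 class II UMIs had 0, 1, 2 and 3 CD3 UMIs. Cd74, the invariant chain that guides class II molecules to the peptide loading compartment, was at 29565 CPM (28439 to 30724) in the C1q cells and at 3178 CPM (2962 to 3405) in the low-C1q cells. H2-Aa and H2-Ab1, the α and β chains of I-A, were at 8341 CPM (7748 to 8968) and 10697 CPM (10024 to 11403). H2-Eb1 was at 8034 CPM (7452 to 8649), and H2-DMa, which helps to load peptide, at 762 CPM (591 to 968). In 1 cell with 116 C1q UMIs and 347 Lyz2 UMIs, the H2-Aa, H2-Ab1 and H2-Eb1 UMIs were 0. Over all members, 9 of the 10 class II genes with at least 20 UMIs were at least 4-fold higher than in the other cells, and H2-Oa was not, at 1.42-fold (0.456 to 3.36).

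Clec4f, Vsig4, Marco and Fcna had no UMI in the 87875 UMIs of the C1q cells, which the grouping by fewer than 3 panel UMIs fixed in large part. Ccl24, which is outside the panel, had none either. Apoe, the apolipoprotein of macrophages that carries cholesterol out of the cell, was at 26071 CPM (25014 to 27161), with 1 to 345 UMIs per cell, against 19569 CPM (18213 to 20999.6) and 4038 CPM (3794 to 4293) in the other groups. Adgre1, which encodes F4/80, was at 489 CPM (354 to 659) and was found in 10 of the 14. A single cell held 27 of its 43 UMIs, and without that cell the level was 192.5 CPM. Cx3cr1, the fractalkine receptor, was found in 9 of the 14 and Cd14 in 10. Among genes outside the lists, Ms4a7, a membrane protein of macrophages, had the highest ratio to the other members, 12.9-fold (7.05 to 25.1), with UMIs in 13 of the 14. Cd72, a receptor known from B cells and also carried by macrophages, followed at 12.3-fold (6.57 to 24.8), and Tmem176a reached 5.78-fold. The low-C1q cells had 1 UMI of Ms4a7 and 1 of Cd72. In the cells with Kupffer transcripts Ms4a7 was at 329.5 CPM (175.5 to 563.5), against 614.5 CPM (461.6 to 801.8) in the C1q cells. Cd72 was at 304 CPM (157 to 531) against 546 CPM (403 to 724). The intervals of these groups overlapped for both genes. Ifnb1, which encodes interferon-β, had 56 UMIs in 10 members and 4 UMIs in all other kept cells together. The C1q cells held 40 of these UMIs, 1 cell with Kupffer transcripts 12 and the low-C1q cells 4. The 10 cells had 22, 12, 10, 3, 3, 2, 1, 1, 1 and 1 UMIs, so 3 cells decided the level of this gene. Ccl7, a chemokine for monocytes, was as uneven, with 37 of its 61 UMIs in the cell with the most Ifnb1. Gsr, Clec4e, Anxa1 and Degs1 had 1 UMI each in the C1q cells and 49 to 124 in the other members.

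Monocyte transcripts, at least 3 UMIs of a 10-gene panel, were found in 70 members, 75.3% (65.2% to 83.6%), against 13 of the other kept cells (0.163%). After thinning to 1500 UMIs the shares were 43.0% and 0.0878%. Of the 10 panel genes 9 had at least 20 UMIs, and all 9 were at least 4-fold higher in the members. The panel level was 2953 CPM (2746 to 3173) in the low-C1q cells, 432 CPM (306 to 594) in the C1q cells and 380.2 CPM (213 to 627) in the cells with Kupffer transcripts. Each of the 68 low-C1q cells had at least 1 panel UMI, with a median of 6 and a maximum of 87. The monocyte and Kupffer panels met in 3 members.

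Genes of the patrolling monocyte were spread over many low-C1q cells at low counts. Treml4, a receptor of the TREM family, was found in 37 of the 68, with at most 5 UMIs per cell, at 264 CPM (205 to 336). Ace, the angiotensin-converting enzyme, was found in 34 at 260.2 CPM (201 to 331), and Eno3, an enolase of glycolysis, in 33 at 245 CPM (187 to 313). Cd300e, an activating receptor, was found in 24 and Adgre4, an adhesion receptor, in 26. Treml4, Ace, Eno3, Cd300e and Adgre4 together gave at least 1 UMI in 55 of the 68 cells and at least 3 in 44. In the C1q cells Ace, Cd300e and Eno3 had no UMI, and no C1q cell reached 3 UMIs of these 5 genes. Genes of the wider monocyte list were found in this group too. Ear2, a ribonuclease, was found in 47 of the 68 at 532 CPM (446 to 630.1), Plac8 in 62 at 3001 CPM (2791 to 3222), and Fabp4, a fatty acid binding protein, in 28 at 379 CPM (307 to 462). Ifitm6, an interferon-induced membrane protein, was found in 46 at 513 CPM (428 to 609), and Hp (haptoglobin, which binds free hemoglobin) in 31 at 383 CPM (310.2 to 467). Plac8 is also a lymphocyte gene, since it was found in 36.2% of the other kept cells, and over all members it was 6.87-fold (6.38 to 7.40) higher. Among genes outside the lists, the highest ratios of the low-C1q cells over the other members were those of Clec4e (a lectin receptor for mycobacterial glycolipid) at 57.2-fold (10.1 to 2280), Anxa1 at 30.6-fold (5.29 to 1229), Gsr at 20.4-fold (6.82 to 100.4), Mgst1 at 14.8-fold (3.92 to 125) and Nupr1 at 12.4-fold (4.08 to 61.4), each with 1 to 3 UMIs in the other members.

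Of the genes of the classical monocyte, Chil3 and Ly6c2 had most of their UMIs in few cells, while Ccr2 was spread more widely. Chil3, a chitinase-like secreted protein, had 222 UMIs in 10 members, and 8 of them had at least 5, with 72, 63, 29, 20, 15, 9, 6 and 5 UMIs. In the same order, Ly6c2 (which encodes Ly6C) had 21, 35, 20, 27, 23, 16, 0 and 1 UMIs. Ccr2, the receptor that leads monocytes out of the marrow, had 11, 4, 15, 7, 1, 0, 1 and 1. Over all members Ly6c2 had 209 UMIs in 19 cells, 143 of them in these 8. Ccr2 had 91 UMIs in 27 cells, 40 of them in these 8 and 17 in 6 C1q cells. Those 6 C1q cells had 14, 9, 16, 4, 4 and 13 CD3 UMIs. The 6 cells with the most Chil3 all had at least 16 Ly6c2 UMIs, and the other 2 had at most 1. Lyz2 reached 207 to 336 UMIs in the first 5 of them. Treml4 had 1 UMI and Cd300e none in the 8 cells, and Ace had 4. F13a1 (the A chain of coagulation factor XIII) had 26 UMIs in 8 members and Fn1 (fibronectin) 16 UMIs in 6, at most 8 and 6 per cell, and Vcan (versican) had 1 UMI. Chil3, F13a1, Vcan and Fn1 together reached 3 UMIs in 9 members, and only 1 of these also reached 3 UMIs of the 5 patrolling genes. Ly6c2 is also carried by lymphocytes: it was found in 29.1% of the other kept cells, and its level over all members was 1.43-fold (1.24 to 1.64) that of the other cells. Ccr2 was likewise found in 1404 of the 7982 other kept cells. Its level was 89.0 CPM (85.25 to 92.87) there against 239 CPM (192 to 293) over all members.

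**Figure D3:**
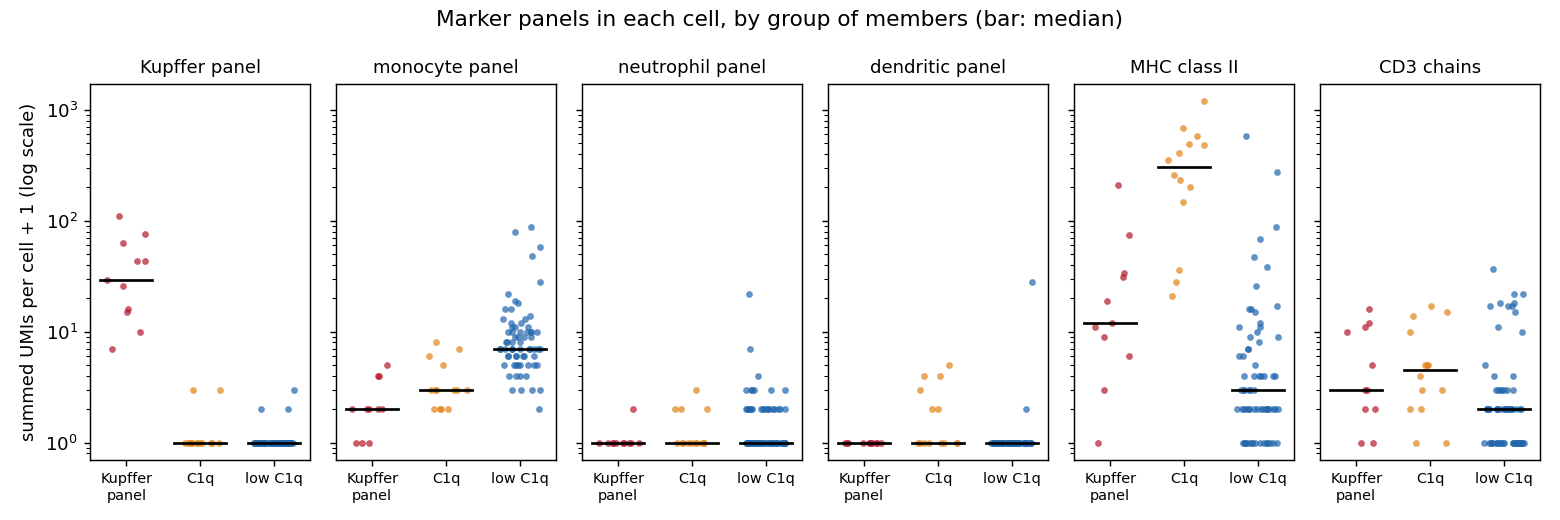
Summed UMIs per cell plus 1 (log scale) of 6 gene lists in the 11 cells with Kupffer transcripts, the 14 C1q cells and the 68 low-C1q cells, with 1 point per cell and the median as a bar. The Kupffer panel was used to form the first group (6 to 110 UMIs), and the median MHC class II sum is 305 in the C1q cells against 11 and 2 in the other groups.

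Neutrophil transcripts, at least 3 UMIs of a 14-gene panel, were found in 3 members, 3.23% (0.670% to 9.14%), and in 36 of the other kept cells (0.451%). All 3 members also reached 3 UMIs of the monocyte panel. The defining granule genes Ngp, Camp, Ltf and Retnlg and the receptor gene Cxcr2 had no UMI in the 380937 UMIs of the members, and neither had Ly6g or S100a9. Of the other granule genes, Lcn2 (lipocalin 2) had 6 UMIs in 2 members and none in the other kept cells, and Mmp8 (neutrophil collagenase) 7 UMIs in 5 members and 1 in the other cells. Of the 5 panel genes with at least 20 UMIs, S100a8, Csf3r and Il1r2 were at least 4-fold higher. The other kept cells held 16, 5 and 17 UMIs of these 3 genes, so they reached the minimum only with the members' own UMIs. With the minimum asked of the other cells alone, 0 of 2 panel genes were higher. The interval of a count of 0 over the members reaches 9.68 CPM. S100a8, a calcium-binding alarmin, had 20 UMIs in 2 members, 17 and 3, and both are cells with 63 and 72 Chil3 UMIs. Csf3r, the receptor for granulocyte colony-stimulating factor, had 20 UMIs in 18 members, at most 2 per cell. In the other kept cells, 114 of the 131 panel UMIs of the 36 cells came from Mmp9, a collagen-cutting enzyme. It had no UMI in the members and was 3.96-fold lower there with that 0 set to 3 UMIs.

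Dendritic cell transcripts, at least 3 UMIs of a 10-gene panel, were found in 4 members, 4.30% (1.18% to 10.7%), and in 1 of the other kept cells. The panel sums were low in 3 of the 4, at 3, 3 and 4 UMIs. The fourth, a low-C1q cell with 6696 UMIs in all, had 27, of which 19 were Cd209a, 4 Clec10a and 3 Mgl2, lectin genes of type 2 dendritic cells. That cell had 577 MHC class II UMIs, 36 Lyz2 UMIs, no C1q UMI and 2 CD3 UMIs. Xcr1, the chemokine receptor of type 1 dendritic cells, had 2 UMIs in 1 member, while Clec9a, Ccl17 and Ccl22 stood at 0 in the cell with 27 panel UMIs. The plasmacytoid panel of 5 genes reached 3 UMIs in 1 member, where Siglech had 5 UMIs. In 13 members none of the 5 panels reached 3 UMIs.

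Genes that macrophages and monocytes share were found across all 3 groups. Of the 16 macrophage genes 14 had at least 20 UMIs, and all 14 were at least 4-fold higher in the members, with a median log2 ratio of 7.70 beside 0.01 over all genes tested. The minimum of 20 UMIs counts the members' own UMIs, so genes nearly absent elsewhere passed it through the members alone, here and in every list. With the minimum asked of the other cells alone, an alternative added after seeing the data, 532 of 10862 genes were higher (4.90%). Among them were 10 of 10 macrophage, 3 of 3 monocyte panel and 2 of 2 Kupffer panel genes. Of the scavenger receptor list 2 of 4 genes were higher and of the neutrophil panel 0 of 2, and the dendritic panel had 0 genes to compare. Csf1r was at 532 CPM (329.5 to 814) in the cells with Kupffer transcripts, 489 CPM (354 to 659) in the C1q cells and 375 CPM (303 to 458) in the low-C1q cells, and these intervals overlapped. Spi1, which encodes PU.1, was found in 80 members, and Cybb, the catalytic part of the phagocyte oxidase, in 77. Of the lysosome and protease genes, 13 of 16 were at least 4-fold higher. Ctss, the cathepsin that trims the invariant chain, was found in 92 members at 55.5-fold (50.2 to 61.4) the level of the other cells, and Lgmn (legumain) at 214-fold (156 to 297). Ctsd was not higher, at 0.818-fold (0.701 to 0.950), and was found in 75.0% of the other cells. In the Fc receptor list 5 of 7 genes were at least 4-fold higher, while Fcer1g and Tyrobp, adaptors that lymphocytes also use, were at 2.55-fold (2.41 to 2.69) and 3.09-fold (2.92 to 3.27). In the complement list the 3 genes with at least 20 UMIs were higher, namely Cfp, C3ar1 and C5ar1. They were not spread alike over the groups. Cfp had its highest level in the cells with Kupffer transcripts, and C3ar1, a receptor for the C3a fragment, had 18 of its 22 UMIs in the C1q cells. C5ar1 was found in all 3 groups, with 17 of its 59 UMIs in 6 cells with Kupffer transcripts and 17 in 7 C1q cells. C3, with 12 UMIs, was found in low-C1q cells alone.

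In the iron and heme list 7 of the 8 genes with at least 20 UMIs were at least 4-fold higher. Ftl1, the ferritin light chain, was at 4.64-fold (4.48 to 4.80), and Fth1, the heavy chain, at 3.78-fold (3.64 to 3.92) and under the limit. In the lipid list 8 of 12 were higher, led by Hpgd (which inactivates prostaglandins) at 511-fold (272 to 1059.9) and Apoe at 333-fold (308 to 359.9). The scavenger receptor list had 5 of 7 genes higher, among them Msr1 at 458-fold (138 to 2389.7). Of 18 cytokine and chemokine genes with at least 20 UMIs 16 were higher. Cxcl2, a chemokine for neutrophils, was found in 70 members with at most 288 UMIs per cell, at 77.6-fold (73.2 to 82.2), and Il1b, which encodes interleukin-1β, in 48 members at 259-fold (184 to 369.6). Ccl4 and Tgfb1, which γδ T cells also express, were at 1.87-fold (1.79 to 1.96) and 1.97-fold (1.64 to 2.35). Of the interferon-induced genes 6 of 12 were higher. Ifitm3 was found in 87 members at 201-fold (179 to 225), whereas Isg15 was at 1.99-fold (1.65 to 2.37). Immediate-early and heat shock genes, which dissociation can raise, had 2 of 12 genes at least 4-fold higher: Atf3 at 10.6-fold (9.67 to 11.7) and Egr1 at 4.60-fold (3.88 to 5.42). Fos was at 1.51-fold (1.42 to 1.60), Jun at 1.08-fold (1.01 to 1.15) and Hspa1a at 1.03-fold (0.959 to 1.11) over all members. Junb and Dnajb1 were lower, at 0.538-fold (0.511 to 0.566) and 0.476-fold (0.413 to 0.547). The groups differed within this list, since Jun was at 5223 CPM (4756 to 5724) in the C1q cells against 1522 CPM (1374 to 1682) in the low-C1q cells, and Egr1 at 1069.7 CPM (864 to 1309) against 174 CPM (126 to 233).

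**Figure D4:**
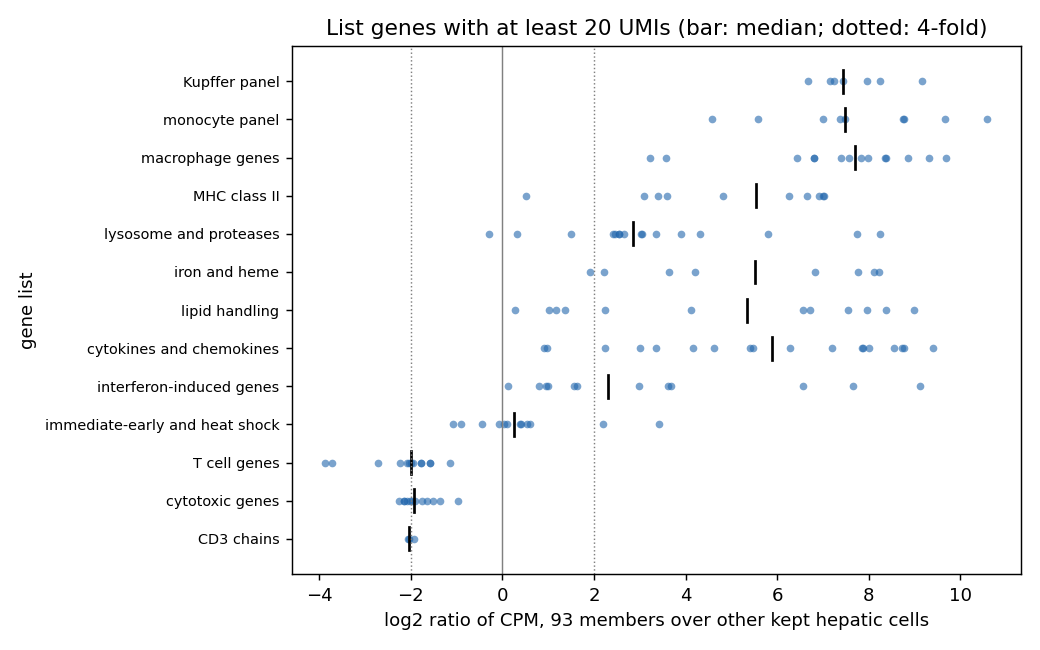
log2 ratio of the CPM in the 93 members over that in the 7982 other kept hepatic cells (x axis) for the genes of 13 lists with at least 20 UMIs (y axis), with 1 point per gene, the list's median as a bar and dotted lines at 4-fold. Medians lie at 7.43 for the Kupffer panel and 7.49 for the monocyte panel, at 0.24 for immediate-early and heat shock genes and at -2.05 for the CD3 chains.

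Outside every list, the 15 highest ratios of genes that reached 100 CPM in the members ran from 328-fold to 1077-fold. They were led by Sirpb1c, a signal-regulatory receptor, with 69 UMIs in 38 members and 4 UMIs in all other cells, 1077-fold (402 to 4065). Ifnb1 and Ms4a7, described above, came next. Pla2g7, a plasma phospholipase made by macrophages, was at 812-fold (299 to 3091) in 29 members, and Tgfbi, a matrix protein, at 703-fold (342 to 1677) in 34. Igsf6, Cd302 and Cyp4f18 were found in 45, 40 and 45 members. Clec4a3, an inhibitory lectin receptor of monocytes, was found in the most members of this set, 61, at 451-fold (274 to 785). The remaining genes were Sirpb1b, Gm9733, Klra2, Mgst1, Clec4a2 and Mcemp1.

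T cell transcripts were lower in the members, yet present in most. Cd3d, Cd3e and Cd3g encode chains of the CD3 complex that carries signals from the T cell receptor, and CD3e was the surface protein used in the sort. At least 1 CD3 UMI was found in 63 members, 67.7% (57.3% to 77.1%), against 99.8% of the other kept cells. After thinning to 1500 UMIs these shares were 44.1% and 98.95%. The CD3 sum was 0 in 30 members, 1 to 4 in 44 and 9 to 36 in 19, and no member had 5 to 8. In the other cells the median was 11 UMIs and 0.163% of the cells had none. The members thus held a majority far under the usual CD3 count of this library and a smaller set within its range.

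Over all members Cd3g was 4.16-fold, Cd3e 4.13-fold and Cd3d 3.81-fold lower than in the other cells. Of the genes whose level in the other cells predicted at least 10 UMIs in the members, 124 of 3961 were at least 4-fold lower, 3.13%. The 124 became 191 when levels were taken without mitochondrial and ribosomal protein genes and 222 with the mean of the cells' own CPM. In the T cell list 6 of 13 genes were among them, led by Tbx21 (the transcription factor T-bet) with 2 UMIs, 0.0684-fold (0.00828 to 0.248), and Cd28 (a costimulatory receptor) with 11 UMIs, 0.0754-fold (0.0376 to 0.135). Ifng, which encodes interferon-γ, was at 0.151-fold (0.109 to 0.204). In the cytotoxic list 5 of 11 genes were among them, including Nkg7 at 0.236-fold (0.207 to 0.269) and Ccl5 at 0.246-fold (0.233 to 0.259). In the type 17 list they were Il17a at 0.158-fold (0.0789 to 0.283) and Cxcr6, which marks resident lymphocytes, at 0.189-fold (0.132 to 0.262). Outside the lists, 10 genes with 1 to 4 UMIs in the members had the lowest ratios, 0.0560 to 0.0977, namely Zbtb38, Cxxc5, Gramd3, Cnot1, 2810001G20Rik, 4930532G15Rik, Ehd3, Cd6, Tespa1 and Cd200r2. The upper limits of their intervals ran from 0.1998 (Gramd3) to 0.546 (Cd200r2), so they cannot be put in order. The 6 tested genes without a UMI in the members were set to 3 UMIs and could not rank among them. Ptprc, which encodes CD45 of all leukocytes and was chosen after its values were seen, was at 444 CPM (379 to 516) in the members and 488 (479 to 497) in the other cells.

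The 19 members with at least 9 CD3 UMIs, a limit placed in the gap after the values were seen, had a median of 5404 UMIs per cell against 2710 in the 74 with 0 to 4. Their T cell list summed to 2197 CPM (1948 to 2470.4), against 473 CPM (393 to 566) in the 74 cells and 4504 CPM (4477 to 4531) in the other kept cells. Their cytotoxic list summed to 17736 CPM (17012 to 18483), against 2028 CPM (1856 to 2211) and 27925 CPM (27858 to 27992). Their rule genes were at 9825 CPM (9289 to 10385), against 22232 CPM (21655 to 22819.8). The 19 cells had Kupffer transcripts in 4 cases, were C1q cells in 4 and low-C1q cells in 11. By the limits that chose them, each of these deeper cells held both sets of transcripts under 1 barcode. What part doublets, free RNA or cells with both programmes had in this was not tested. With the 74 cells alone, an alternative added after seeing the data, 252 genes were at least 4-fold lower in place of 124, 789 in place of 683 were at least 4-fold higher, and 7 of the 74 had Kupffer and 58 monocyte transcripts.

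**Figure D5:**
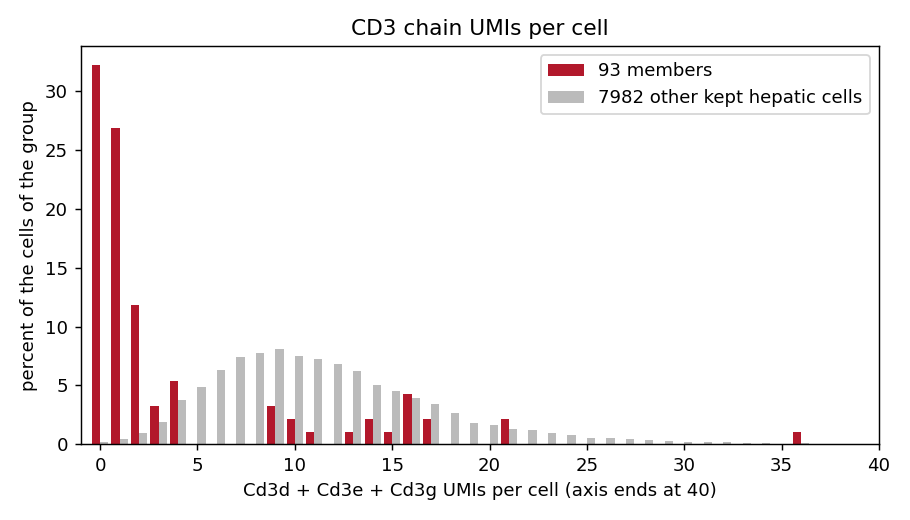
Share of cells (y axis, percent of the group) at each summed count of Cd3d, Cd3e and Cd3g UMIs (x axis) in the 93 members and the 7982 other kept hepatic cells. The members pile up at 0 to 4 UMIs, none has 5 to 8, and 19 lie at 9 to 36, under the broad peak of the other cells.

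Most markers of other cells were at or near 0 in the members. The stellate and fibroblast list (6 genes) and the mast cell and basophil list (5 genes) had no UMI. Hepatocyte genes summed to 8 UMIs, at most 2 per cell, and Alb had 3 of them. Of the 5 genes with at least 20 UMIs Apoa1 alone passed 4-fold with 2 UMIs, under the floor of 3 UMIs, and its interval began at 0.515-fold. B cell genes reached at most 2 UMIs per cell and erythroid genes at most 3, and none of the 6 and 5 genes with at least 20 UMIs passed 4-fold. None of the 8 cell cycle genes did, at 12 UMIs in all. Liver endothelial genes summed to 28 UMIs, and 2 members held 5 or more of them. Dnase1l3 had 12 in 5 members, of which none was a low-C1q cell. Cdh5, which encodes VE-cadherin, had 6, 1 in each of 6 cells with Kupffer transcripts (152 CPM (55.8 to 331)), against 3 UMIs in all other kept cells. Whether these transcripts were endothelial RNA or were made by the cells themselves was not tested. Among platelet genes Pf4, which macrophages can also express, had 25 UMIs in 11 members, 9 of them C1q cells.

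In the thymus library 3 of 4351 kept cells met the same rule, 0.0690% (0.0142% to 0.201%), with 201, 59 and 18 rule UMIs, and the next cell had 4. The share in the liver lay above this interval. The tissues also differed in the bead depletion, which cannot be told apart from the tissue. The libraries shared 60 barcodes, 1 of them that of a member, and its thymic namesake did not meet the rule.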

How the data were processed

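The authors sorted γδ T cells, prepared 10x Genomics 3′ libraries and deposited the count of UMIs for every gene in every barcode, not normalized. The submitters' processing notes name Cell Ranger, Seurat 3.0 and the build mm10, and the counting options are not given in the sources used here. UMIs were summed over groups of cells and given as CPM. The 95% intervals are exact: Poisson for CPM, conditional binomial for ratios and Clopper-Pearson for shares. They cover counting error only. A group at 0 UMIs was set to 3 UMIs for a ratio. Genes were called at least 4-fold higher among those with at least 20 UMIs over all kept hepatic cells, and at least 4-fold lower among those for which the other cells predicted at least 10 UMIs in the members. For thinned shares, 1500 UMIs were drawn from each cell (1 draw, seed 11), without the 5 kept cells that had fewer.

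The members, the marker lists (32 lists, 310 genes, all found) and the limits were chosen with earlier results of these data known. Named genes are those of the lists, the 15 highest ratios (at least 100 CPM) and the 10 lowest outside every list, and within the members the 5 highest and 5 lowest ratios among genes with at least 50 UMIs. Mitochondrial and ribosomal protein genes were not named. The groups by C1q, Chil3 and CD3 were formed after the values were seen. Scrublet in scanpy 1.11.5 called 1 of 8075 cells a doublet, so its calls were not used, and doublets were kept. Of the 404 cells with the highest scores 5 were members. All 5 were among the 19 members with at least 9 CD3 UMIs. Promoter sequences came from RefSeq (GRCm38.p6). The code was tested on simulated data. Python 3.11.15, numpy 2.4.6, scipy 1.17.1, pandas 2.3.3 and matplotlib 3.10.9 were used. Alternatives changed the rule, the filters, the limits and the scaling.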

Additional observations from a re-analysis of the deposited data

How the results depend on the processing

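Of 113 values under alternatives, 87 stayed within the interval of the reported share or within 1.5 times the reported count, and 26 did not. The cause was not tested for any of these. The members, 1.15% of the kept hepatic cells, became 0.916% with a rule minimum of 20 UMIs, 0.285% with C1qa, C1qb and C1qc alone and 0.917% after thinning to 1500 UMIs. With the C1q genes alone (23 cells), Kupffer transcripts stood in 43.5%, monocyte transcripts in 26.1%, neutrophil transcripts in 0% and CD3 transcripts in 82.6%, and 65 genes were lower. With Lyz2 alone (85 cells), Kupffer transcripts stood in 5.88%. After thinning, with members chosen anew (74 cells), monocyte transcripts stood in 41.9%, dendritic in 0% and CD3 in 36.5%. A panel minimum of 1 UMI gave 96.8% for monocyte and 33.3% for neutrophil transcripts, and one of 5 UMIs gave 58.1% for monocyte and 1.08% for dendritic transcripts. A CD3 minimum of 3 UMIs gave 29.0%, and members without a CD3 UMI had neutrophil transcripts in 0%. At 2-fold, 1541 genes were higher and 662 lower. Without a minimum on UMIs 1464 were higher and 305 lower, and with a minimum of 50 UMIs 29 were lower. The 124 lower genes became 191 without mitochondrial and ribosomal protein genes, 222 with the mean of the cells' own CPM, and 252 in members with at most 4 CD3 UMIs, an alternative added after seeing the data. Leaving out the 5% of cells with the highest doublet scores also stayed within these limits. It took out 5 members, all with at least 9 CD3 UMIs. The automatic call failed, and the part of doublets was not tested. No paired analysis was possible because each tissue had 1 library and no test was made. With 93 cells of 1 library, the interval of a count of 0 in the members reaches 9.68 CPM, and other mice may give other shares.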
